A study of Mus musculus with 3 samples.

Results

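Collagen genes were taken as the protein-coding genes of the mouse GRCm38 RefSeq annotation whose symbols follow the pattern of a type and a chain number, such as Col4a1. The rule gave 44 genes of 21887 protein-coding genes on the chromosomes analysed: 11 chains of fibrillar collagens, 6 chains of the basement membrane collagen type IV, and 27 chains of other types. DNA 5-hydroxymethylcytosine (5hmC) was profiled in mouse cerebellum, with 1 library per group: DDD-seq of normal control tissue, DDD-seq of tissue after chronic sleep deprivation (CSD), and ACE-seq of normal control tissue. Per the labels, DNA was glycosylated and then treated with a deaminase, so that protected 5hmC is still read as C. Strain, age, sex, genotype, the sleep-deprivation protocol and the number of animals are not given in the sources used here.

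Collagens are the main structural proteins of extracellular matrix, and their chains wind around each other into long helices. In the brain they lie mainly in the meninges, around blood vessels and in basement membranes, and are secreted by fibroblasts, pericytes and endothelial cells, while a few types are made by neurons. 5hmC is formed when TET enzymes oxidise 5-methylcytosine, and in neurons it is known to be abundant over the bodies of expressed genes. Granule neurons are the most numerous cells of the cerebellum.

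The deposited values were fractions of 5hmC in consecutive bins of 10 kb, given here as percent. The gene-body level of a gene was the mean over the bins that it overlaps, and the standard error (SE) given with it is the scatter between those bins, not between animals. With 1 library per group no test between groups was possible, every comparison is one of libraries, and no p-value is given. Over all bins the libraries had mean levels of 1.54% (DDD-seq control), 1.54% (CSD) and 1.50% (ACE-seq control). No read counts accompany the levels, and their sequencing depth is unknown. Of 10 granule cell genes, looked at because of the labelled tissue, the levels in the DDD-seq control ran from 0.889% at Zic2 over 2 bins to 6.52% at Etv1 over 10 bins. Kcnd2 (5.36%) was also high, whereas Neurod1 (1.06%) and Zic1 (0.92%), of 1 and 2 bins, were low, and the list as a whole gave no single direction. Of the 44 collagen genes, 32 covered at least 5 bins. The other 12 covered 2 to 4 bins and are given apart.

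Most collagen genes had low 5hmC levels in all 3 libraries. Among the 32 genes of at least 5 bins, median levels reached 1.32% (DDD-seq control), 1.37% (CSD) and 1.32% (ACE-seq control). The median of all 6665 protein-coding genes of that size was 1.54%, 1.53% and 1.49% in the same order. The mean over intergenic bins was 1.35%, 1.37% and 1.32%, and their median was 1.27%, 1.28% and 1.23%. The median collagen gene thus lay near the intergenic mean and above the intergenic median. Genes of any size were also near that mean, with a median of 1.33%, 1.31% and 1.29% over 21676 genes. A total of 25 of the 32 collagen genes lay below the all-gene median in all 3 libraries, against 41.2% of all genes. Col9a1, Col19a1, Col11a1 and Col22a1 lay above it in all 3 libraries, against 42.1% of all genes. Above the 75th percentile of all genes (background 25%) was 1 collagen gene in the DDD-seq control, Col9a1, and 2 genes in each of the other libraries, Col9a1 and Col19a1. Below the 25th percentile (background 25%) were 14, 9 and 7 of the 32 genes in the DDD-seq control, CSD and ACE-seq libraries. Below the all-gene median of a single library (background 50%) were 28, 25 and 28 genes.

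The position of the collagen genes depended on the size of the genes they were set beside, and short genes had lower levels than long ones. Among genes of at least 20 bins, 8 of 10 collagen genes lay below the median of 1092 genes in all 3 libraries (background 46.2%). With genes of any size, 14 of 44 collagen genes did so, a share close to the 30.3% of 21676 genes. By single library, 27, 20 and 20 of the 44 (61.4%, 45.5% and 45.5%) then lay below the median in the DDD-seq control, CSD and ACE-seq libraries, where the background is 50%. Across the 32 collagen genes, Spearman's rho between gene length and level was 0.27, 0.14 and 0.08 (DDD-seq control, CSD and ACE-seq libraries), and across all 6665 genes it was 0.28, 0.29 and 0.27. These are descriptions across genes, which share library and base composition with their neighbours.

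**Figure D1:**
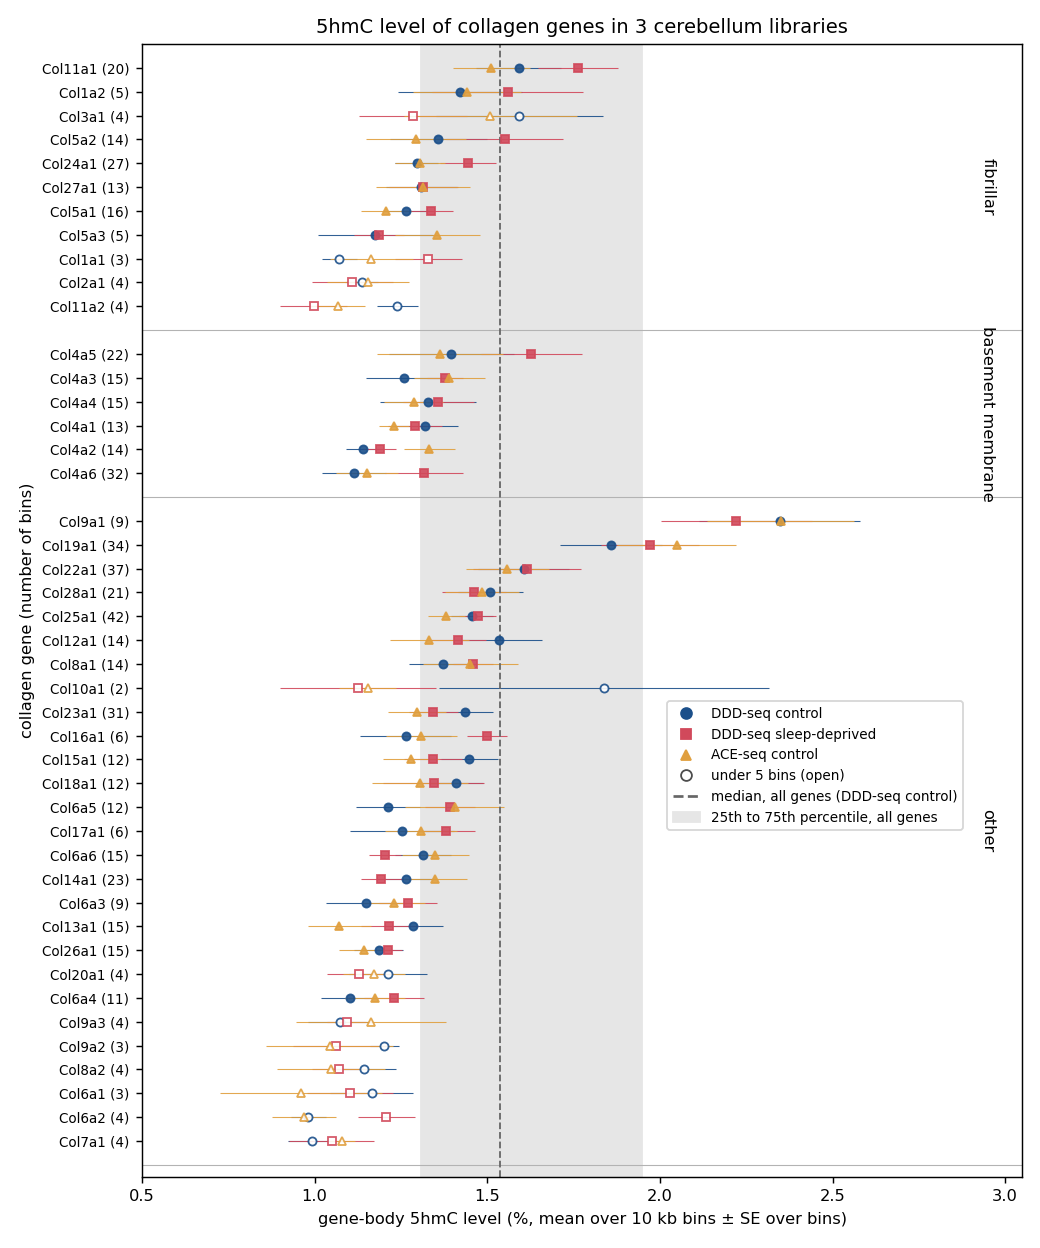
Gene-body 5hmC level (x axis, percent) of each of the 44 collagen genes (y axis, with the number of 10 kb bins) in the DDD-seq control (circles), the sleep-deprived DDD-seq library (squares) and the ACE-seq control (triangles). Bars are the SE over bins, open symbols mark genes under 5 bins, and the dashed line and grey band give the median and the 25th to 75th percentile of all genes in the DDD-seq control. Col9a1 lies highest in all 3 libraries, and most genes lie left of the dashed line.

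The fibrillar collagens form the banded fibres of skin, bone, tendon and vessel walls. Of 11 genes, 7 covered at least 5 bins, with a median of 1.31% in the DDD-seq control, 1.44% in the CSD library and 1.31% in the ACE-seq control. Col11a1, a chain of the type XI collagen of cartilage fibrils, was the highest of the 7 in each library, with 1.59% ± 0.12 (SE over 20 bins), 1.76% ± 0.12 and 1.51% ± 0.11 in that order. Col1a2, which encodes a chain of type I collagen, the main collagen of fibroblasts, had 1.42%, 1.56% and 1.44% over 5 bins. Both genes were highest in the CSD library, where Col11a1 lay at percentile 66.6 of all genes.

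Col5a2 and Col5a1 encode chains of type V collagen, which sets the diameter of type I fibrils. Col5a2 had 1.36%, 1.55% and 1.29% in the DDD-seq control, CSD and ACE-seq libraries. Col5a1 had 1.27%, 1.34% and 1.21%. The third chain gene, Col5a3, had 1.18%, 1.19% and 1.36% over 5 bins. Thus the CSD library was the highest at Col5a2 and Col5a1 and the ACE-seq control at Col5a3. The developmental fibrillar genes Col24a1 and Col27a1 were also low. Col24a1 had 1.30%, 1.44% and 1.30% over 27 bins, and Col27a1 had 1.31% in each library.

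Type IV collagen is the network-forming collagen of basement membranes, including that around brain capillaries. All 6 of its chain genes covered at least 5 bins, with a median of 1.29% in the DDD-seq control, 1.34% in the CSD library and 1.31% in the ACE-seq control, close to those of the fibrillar genes. They lie in pairs on opposite strands with adjoining starts. Col4a1 and Col4a2, the chains found in nearly all basement membranes, overlap by 85 bases and share 1 bin. Col4a1 had 1.32% ± 0.10, 1.29% ± 0.08 and 1.23% ± 0.04 over 13 bins. Col4a2 had 1.14% ± 0.05, 1.19% ± 0.05 and 1.33% ± 0.07 over 14 bins. Col4a1 was thus higher than Col4a2 in both DDD-seq libraries and lower in the ACE-seq control. Col4a3 and Col4a4, which encode chains of the specialised membranes of kidney glomerulus, cochlea and eye, overlap by 114 bases. Col4a3 had 1.26%, 1.38% and 1.39%, and Col4a4 had 1.33%, 1.36% and 1.29%.

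The remaining pair, Col4a5 and Col4a6, lies on chromosome X with 1274 bases between the genes. Col4a5 had 1.40% ± 0.18, 1.63% ± 0.15 and 1.36% ± 0.18 over 22 bins, the highest type IV level in both DDD-seq libraries. Col4a6 had 1.11% ± 0.09, 1.32% ± 0.11 and 1.15% ± 0.09 over 32 bins. Col4a5 was higher than Col4a6 in each library, by 0.281, 0.311 and 0.211 percentage points. Values of X-linked genes scattered more between libraries than those of autosomal genes: the median size of the CSD minus control difference was 0.213 points over 277 X-linked genes and 0.0955 points over 6382 autosomal genes.

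The collagens that attach to the surface of fibrils (FACITs) held both genes above the 75th percentile. Col9a1, a chain of type IX collagen of cartilage and eye, had 2.35% ± 0.23 in the DDD-seq control, 2.22% ± 0.22 in the CSD library and 2.35% ± 0.21 in the ACE-seq control (SE over 9 bins), at percentiles 86.2, 83.7 and 87.1 of all genes. Col19a1, which encodes the type XIX collagen found in some interneurons and in muscle, had 1.86% ± 0.15, 1.97% ± 0.14 and 2.05% ± 0.17 over 34 bins. Both genes lie on chromosome 1, 4944 bases apart, with Col9a1 at 24177589 to 24252738 and Col19a1 at 24257683 to 24587922. The other 2 chains of type IX collagen, encoded elsewhere in the genome, were low: Col9a2 had 1.2%, 1.06% and 1.04% over 3 bins, and Col9a3 had 1.07%, 1.09% and 1.16% over 4 bins.

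Both starts that RefSeq lists for Col9a1 are poor in CG, the dinucleotide in which most cytosine methylation occurs, as shown by the 300 bases around them (250 before and 50 after each start, GRCm38.p6, CG in capitals). They are printed with the shared start region of Col4a1, the collagen start richest in CG, and with Col3a1, whose start window has no CG and lies in a bin of lower level in each library. The windows are Col9a1 upstream, chr1:24177360-24177659 on the plus strand, Col9a1 downstream, chr1:24194953-24195252 on the plus strand, Col3a1, chr1:45311288-45311587 on the plus strand, and Col4a1, chr8:11312777-11313076 on the minus strand.
Col9a1 upstream start: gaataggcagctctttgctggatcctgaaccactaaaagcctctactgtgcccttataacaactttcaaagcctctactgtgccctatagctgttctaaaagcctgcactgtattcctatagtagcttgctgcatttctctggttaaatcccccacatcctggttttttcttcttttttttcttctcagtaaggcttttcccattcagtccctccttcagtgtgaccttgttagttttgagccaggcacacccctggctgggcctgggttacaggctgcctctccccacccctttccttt
Col9a1 downstream start: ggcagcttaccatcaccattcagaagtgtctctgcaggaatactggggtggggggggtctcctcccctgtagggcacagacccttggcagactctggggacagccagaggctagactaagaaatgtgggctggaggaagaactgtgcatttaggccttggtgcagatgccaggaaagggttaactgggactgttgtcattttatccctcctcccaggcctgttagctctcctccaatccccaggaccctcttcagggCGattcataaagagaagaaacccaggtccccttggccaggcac
Col3a1 start: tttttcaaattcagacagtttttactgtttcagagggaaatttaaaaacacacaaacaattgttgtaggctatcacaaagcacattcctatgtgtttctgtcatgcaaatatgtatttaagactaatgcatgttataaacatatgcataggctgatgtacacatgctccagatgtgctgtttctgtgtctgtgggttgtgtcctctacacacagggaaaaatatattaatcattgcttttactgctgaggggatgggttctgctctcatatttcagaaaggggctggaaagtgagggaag
Col4a1 start: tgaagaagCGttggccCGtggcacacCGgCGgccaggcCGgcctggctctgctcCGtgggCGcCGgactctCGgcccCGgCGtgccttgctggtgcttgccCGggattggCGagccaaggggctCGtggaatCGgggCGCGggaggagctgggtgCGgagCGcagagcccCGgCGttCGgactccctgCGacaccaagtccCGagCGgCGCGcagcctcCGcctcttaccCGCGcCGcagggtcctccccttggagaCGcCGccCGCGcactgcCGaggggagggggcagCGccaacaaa

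The upstream Col9a1 window held 0 CG and the downstream window 1 CG. The 10 kb bin with the upstream start had 3.11% in the DDD-seq control, 2.42% in the CSD library and 2.84% in the ACE-seq control, and that with the downstream start had 2.77%, 3.02% and 2.61%. The Col3a1 window also held 0 CG, with 0.942%, 0.929% and 1.66% in its bin. The Col4a1 window held 37 CG, and 78 of its bases also belong to the window of Col4a2 on the opposite strand. Its bin had 1.08%, 1.2% and 1.37%. Start windows were found for 35 of the 44 genes (38 windows), with a median of 11.5 CG against 7 CG over all 32851 windows. Of the collagen windows, 9 held at least 20 CG, as did 26.5% of all windows. At most 5 CG were held by 10 of the 38 collagen windows, against 43.6% of all windows. Across the 38 windows, Spearman's rho between the CG count and the level of the bin was -0.10, -0.06 and -0.22 (DDD-seq control, CSD and ACE-seq libraries). Over 32691 windows with values it was 0.09, 0.07 and 0.11. A bin is far longer than a start window.

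Inside Col19a1 the level was uneven. In the 17 bins nearer its start the mean level of the DDD-seq control, CSD and ACE-seq libraries came to 2.15%, 2.26% and 2.43%, and in the 17 bins nearer its end it was 1.57%, 1.68% and 1.67%. A pair of bins, at 24510001 to 24520000 and 24540001 to 24550000, stood out in each library. The bin at 24510001 had 4.51%, 4.57% and 4.22%. The bin at 24540001 had 4.41%, 4.12% and 5.42%. They lie 72.9 and 42.9 kb inside the gene from its start. Of the 20 collagen genes of at least 10 bins with a listed strand, 14, 11 and 14 had the higher mean in the bins nearer the start (DDD-seq control, CSD, ACE-seq), where the background was 65.6%, 67.5% and 65.7% of 2259 genes. The share for collagens was thus near the background.

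Several longer genes around this pair also lay above the all-gene median. In the DDD-seq control, Lmbrd1 had 3.01%, Smap1 3.20%, Fam135a 2.03% and Adgrb3, which encodes an adhesion receptor of synapses, 3.52%. The 2 libraries other than the DDD-seq control gave 2.78% and 3.09% at Lmbrd1 and 3.50% and 3.44% at Adgrb3. Col9a1 exceeded the bins within 100 kb on either side by 1.43-fold in the DDD-seq control, 1.43-fold in the CSD library and 1.44-fold in the ACE-seq control. Col19a1, whose flanks hold Col9a1 and part of Lmbrd1, was at 0.849, 0.946 and 0.956 times its flanks. Against the 10 intergenic bins of those flanks alone, Col19a1 was at 1.1996, 1.348 and 1.502 times their level, in the same order.

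**Figure D2:**
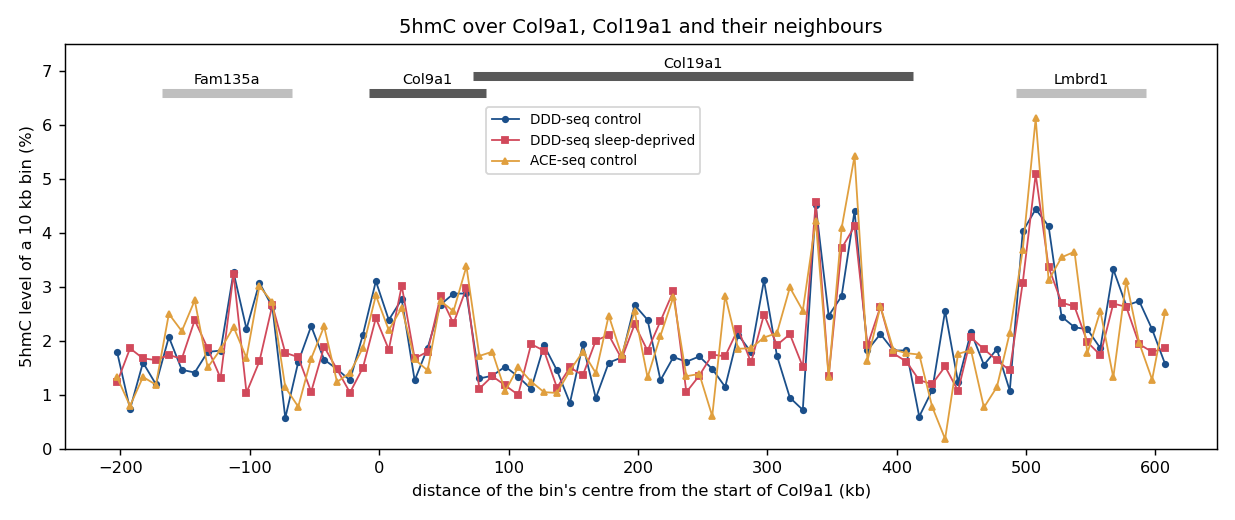
5hmC level of single 10 kb bins (y axis, percent) against the distance of the bin centre from the start of Col9a1 (x axis, kb) in the 3 libraries, with the span of each gene drawn above as whole bins. Bins 337 and 367 kb from the start, inside Col19a1, reach 4.12 to 5.42% in the 3 libraries, and the mean of Col9a1 lies 1.43 to 1.44-fold above its flanks.

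The other FACIT genes lay at or below the all-gene median, apart from Col22a1. Col22a1, a collagen of tissue junctions, had 1.61%, 1.62% and 1.56% over 37 bins. Its bin at 72110001 to 72120000 on chromosome 15 had 4.74%, 6.29% and 3.82%, the highest value of any collagen bin in both DDD-seq libraries. Col12a1, which associates with type I fibrils, had 1.53%, 1.42% and 1.33%. Col16a1 had 1.26%, 1.50% and 1.31% over 6 bins, and Col14a1, which encodes a further fibril-associated chain, had 1.27%, 1.19% and 1.35% over 23 bins. Col20a1 had 1.21%, 1.13% and 1.17% over 4 bins.

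The transmembrane collagens are anchored in the cell membrane and include Col25a1, a collagen of neurons that guides motor innervation. Col25a1 was the longest collagen gene (419.527 kb) and had 1.46% ± 0.06, 1.47% ± 0.05 and 1.38% ± 0.05 over 42 bins, at percentiles 41.7, 43.9 and 38.5. This neuronal collagen thus lay below the all-gene median in all 3 libraries, whereas Col19a1, found in some interneurons, lay above it in each. Col23a1 had 1.44%, 1.34% and 1.30% over 31 bins. Col13a1, a collagen of the neuromuscular junction, had 1.28%, 1.22% and 1.07%, the lowest ACE-seq level among the 32 genes. Col17a1, a hemidesmosome collagen of skin, had 1.25%, 1.38% and 1.31%.

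The multiplexins are basement membrane zone collagens, and Col18a1 encodes the precursor of endostatin. Col15a1 had 1.45%, 1.34% and 1.28%, and Col18a1 had 1.41%, 1.34% and 1.31%, so that the 2 genes were alike in level and had the same order of libraries. Type VI collagen forms beaded filaments around cells. In the DDD-seq control its 4 genes of at least 5 bins all lay below the collagen median of 1.32%, whereas Col6a5 in the CSD library and Col6a5 and Col6a6 in the ACE-seq control lay above it. The median of the 4 was 1.18%, 1.25% and 1.29%. Col6a3 had 1.15%, 1.27% and 1.23%. Col6a4, Col6a5 and Col6a6 follow each other on chromosome 9. Col6a4 had 1.1%, 1.23% and 1.17%, Col6a5 had 1.21%, 1.39% and 1.41%, and Col6a6 had 1.31%, 1.2% and 1.35%. No order of these 3 neighbours was shared by the 3 libraries except that Col6a4 lay below Col6a5.

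Of the remaining genes, Col8a1, a short-chain collagen of vessel walls and cornea, had 1.37%, 1.46% and 1.45%. Col28a1, a collagen of peripheral nerve, had 1.51%, 1.46% and 1.48% over 21 bins, and Col26a1 had 1.19%, 1.21% and 1.14%. The SE over bins of the 32 genes ranged from 0.0381 to 0.233 points, and the distance between a gene's highest and lowest library ranged from 0.00603 to 0.265 points.

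The 12 genes under 5 bins had medians of 1.15%, 1.11% and 1.12%. They included Col1a1, the partner chain of Col1a2, with 1.07%, 1.33% and 1.16% over 3 bins. Col3a1, the fibrillar collagen of vessel walls, had 1.59%, 1.28% and 1.51% over 4 bins. Col2a1, the main collagen of cartilage, had 1.14%, 1.11% and 1.15%, and Col11a2 1.24%, 1.0% and 1.07%. Col7a1, which forms the anchoring fibrils of skin, had 0.993%, 1.05% and 1.08%. Col6a1 had 1.17%, 1.1% and 0.96%, Col6a2 0.982%, 1.21% and 0.969%, and Col8a2 1.14%, 1.07% and 1.05%. Col10a1, the collagen of hypertrophic cartilage, had 1.84%, 1.12% and 1.15% over 2 bins, the widest spread between libraries in this group. Both of its bins also overlap another protein-coding gene, so the level is not that of Col10a1 alone. A level over so few bins rests on single bins, and collagen bins were only loosely related between libraries: over the 588 bins of all members, Spearman's rho with the DDD-seq control was 0.33 for the CSD library and 0.29 for the ACE-seq control.

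Collagen bins of high level were few. Of the 588 bins, 7 exceeded 3% in the DDD-seq control (1.19%), 8 in the CSD library and 8 in the ACE-seq control (1.36% each), whereas 9.51%, 9.02% and 8.95% of all genic bins did. In all 3 libraries, 7 bins exceeded 2.5%, of which 3 lay in Col19a1, 3 in Col9a1 and 1 in Col22a1. The background was 8.59% of genic bins.

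Over the 32 genes, collagen gene bodies lay close to the DNA around them. The ratio of body to flank, over the 100 kb on either side, had a median of 0.967 in the DDD-seq control, 1.01 in the CSD library and 1.02 in the ACE-seq control, against 1.08, 1.07 and 1.08 over all genes. By class the median ratio was 1.07, 1.13 and 1.11 for the fibrillar genes, 0.977, 1.0 and 1.05 for type IV and 0.949, 0.941 and 0.970 for the other types. With these flanks the fibrillar medians thus lay above those of all genes in the CSD and ACE-seq libraries. At least 1.2-fold above the flank were 3 of 32 genes in the DDD-seq control (Col9a1, Col11a1 and Col4a5), where the background was 36.1%. In the CSD library they were 3 genes (Col9a1, Col4a5 and Col5a2; background 35.4%), and in the ACE-seq control 4 genes (Col9a1, Col4a5, Col4a6 and Col5a3; background 36.9%). Col9a1 and Col4a5 passed in each library. At least 1.2-fold below the flank were 2 genes in the DDD-seq control (Col17a1 and Col6a4; background 15.5%), 1 gene in the CSD library (Col12a1; background 14.3%) and 5 genes in the ACE-seq control (Col12a1, Col13a1, Col17a1, Col22a1 and Col6a4; background 15.9%). Against intergenic flanking bins only, the median ratio was 1.09, 1.12 and 1.06 over 30 collagen genes and 1.19, 1.18 and 1.2 over all genes. The fibrillar median was then 1.11, 1.15 and 1.11, below that of all genes in each library. Then 7, 6 and 5 collagen genes passed, against 48.9%, 47.5% and 49.7% of all genes. The choice of flank turned the median difference in the DDD-seq control from -0.0499 to 0.111 points, while the median over the 32 genes, or 30 with intergenic flanks, lay below that of all genes with both flanks.

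**Figure D3:**
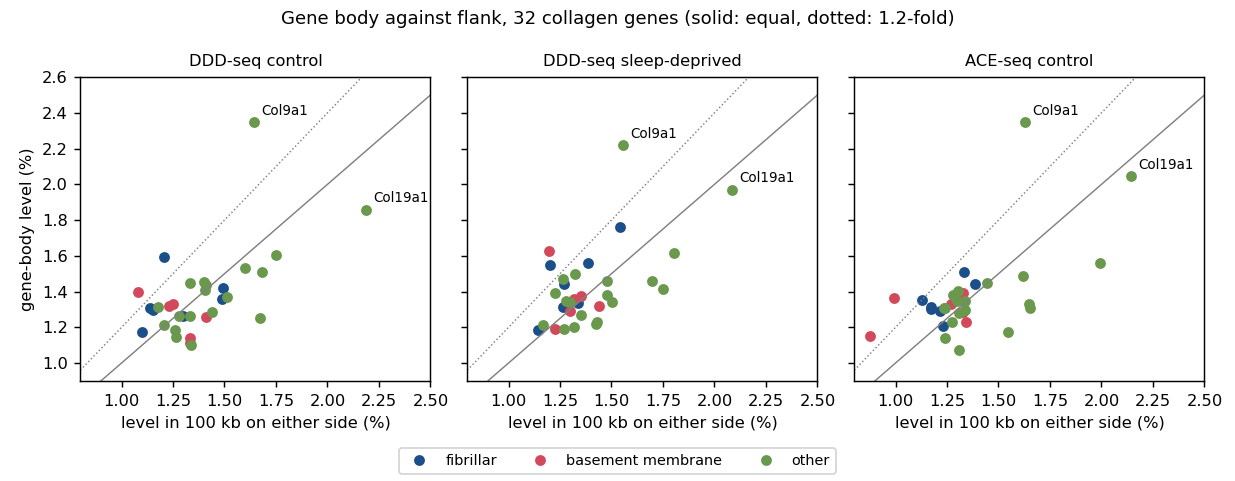
Gene-body 5hmC level (y axis, percent) against the mean level of the bins within 100 kb on either side (x axis, percent) for the 32 collagen genes of at least 5 bins, in 1 panel per library and coloured by class. The solid line marks equal levels and the dotted line a body 1.2-fold above the flank. Most genes lie near the solid line, and Col9a1 lies above the dotted line in each panel.

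The first comparison of libraries set chronic sleep deprivation against control by DDD-seq. At the 32 collagen genes the median size of the difference was 0.107 points, beside 0.0986 points over all genes. Of the 32 genes, 22 were higher in the CSD library and 10 lower, with a median difference of 0.0395 points, beside 49.0% of all genes higher, 51.0% lower and a median of -0.00285 points over all genes. No collagen gene of at least 5 bins differed by 1.2-fold in either direction, whereas 4.91% of all genes were higher and 4.68% lower by that fold. By the median over bins in place of the mean, 4 genes were at least 1.2-fold higher (Col4a5, Col5a2, Col16a1 and Col24a1; background 8.78%) and none was lower (background 9.39%). None of these 32 genes differed by more than 3 SE over bins, against 0.84% of all genes higher and 0.915% lower. At a fold of 1.1, 10 of the 32 collagen genes were higher, a larger share than the background of 15.8%. They were Col4a5, Col4a6, Col5a2, Col6a3, Col6a4, Col6a5, Col11a1, Col16a1, Col17a1 and Col24a1. None was lower by that fold (background 16.9%).

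Among the genes of at least 5 bins, the 5 furthest above control were Col16a1, by 0.24 ± 0.11 points (SE over 6 bins), Col4a5, by 0.23 ± 0.26, Col4a6, by 0.20 ± 0.12, Col5a2, by 0.19 ± 0.25, and Col6a5, by 0.18 ± 0.08. For the X-linked pair Col4a5 and Col4a6 the ratios were 1.17 and 1.18, while the median difference over all X-linked genes was -0.0216 points. The bin shared by their starts had 1.29% in the control, 2.79% in the CSD library and 1.21% by ACE-seq. The 5 furthest below control among the 32 genes were Col9a1, with a CSD minus control difference of -0.13 ± 0.13 points, Col12a1 with -0.12 ± 0.14, Col6a6 with -0.11 ± 0.07, Col15a1 with -0.11 ± 0.10 and Col23a1 with -0.09 ± 0.05. Each of these differences lay within 3 SE of 0.

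By class, all 7 fibrillar genes of at least 5 bins were higher in the CSD library, beside 49.0% of all genes. Their median difference was 0.138 points, with a range from 0.00603 at Col27a1 to 0.192 at Col5a2. The shorter fibrillar genes did not follow: Col1a1 was 0.26 points higher, whereas Col3a1, Col11a2 and Col2a1 had differences of -0.31, -0.24 and -0.03 points. Of the type IV genes 5 of 6 were higher, beside the same 49.0%, and Col4a1 was lower, with a median of 0.0842 points. The other types were divided, 10 higher and 9 lower, with a median of 0.0101 points. Whether the classes differ from each other was not tested, since each class has 1 library per group. Among the 12 genes under 5 bins, 2 were at least 1.2-fold higher in the CSD library, Col1a1 and Col6a2, and 3 were lower, Col3a1, Col11a2 and Col10a1. Of all 10404 genes of 2 to 4 bins, 15.0% were higher and 15.9% lower by that fold. Col1a1 and Col6a2 also differed by more than 3 SE over their 3 and 4 bins (background 6.49%), with 0.26 ± 0.05 and 0.23 ± 0.06 points, and 0 of the 12 were lower by that measure (background 7.05%).

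**Figure D4:**
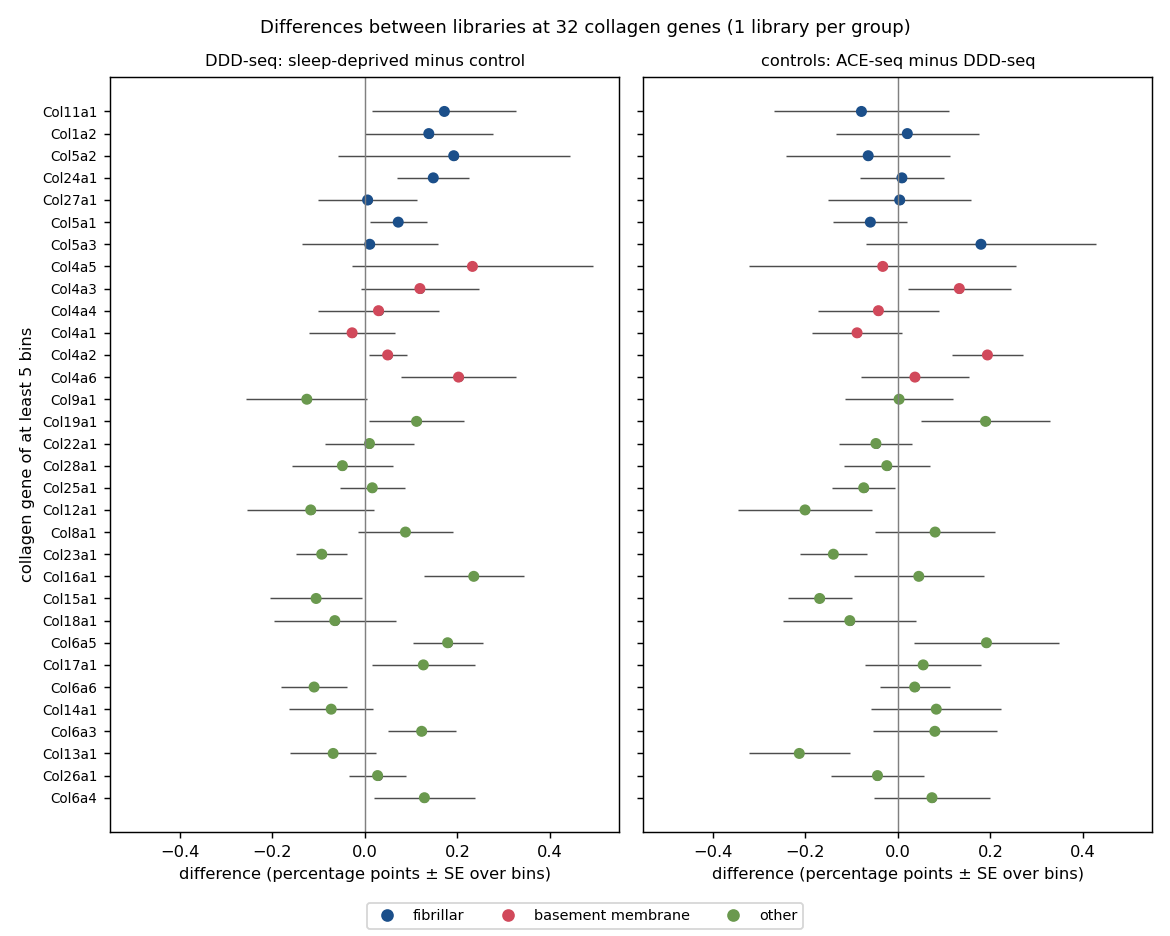
Difference in gene-body 5hmC level (x axis, percentage points ± SE over bins) at the 32 collagen genes of at least 5 bins (y axis), for the sleep-deprived minus control DDD-seq libraries (left) and for ACE-seq minus DDD-seq controls (right), coloured by class. All 7 fibrillar genes lie right of 0 in the left panel, and no difference reaches 3 SE in either panel.

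The second comparison set the ACE-seq control against the DDD-seq control, and so shares the DDD-seq control library with the first. Over all genes ACE-seq gave lower levels, by a median of -0.0457 points, with 38.9% of genes higher and 61.1% lower. Of the 32 collagen genes 17 were higher and 15 lower by ACE-seq, with a median difference of 0.00328 points. At collagen genes of at least 5 bins, none differed by 1.2-fold in either direction, against 4.34% of all genes higher and 9.23% lower, and none differed by more than 3 SE (background 0.45% higher and 1.64% lower). Of the 12 shorter genes, 0 were higher by that fold (background 15.1% of genes of 2 to 4 bins) and 2 lower, Col10a1 and Col6a1 (background 22.4%), with ratios of 0.628 and 0.824. None of the 12 differed by more than 3 SE (background 5.49% higher and 8.85% lower). By the median over bins, 1 gene was at least 1.2-fold higher (Col5a3; background 7.71%) and 1 lower (Col12a1; background 14.1%). At a fold of 1.1, 5 genes were higher by ACE-seq (Col19a1, Col4a2, Col4a3, Col5a3 and Col6a5; background 13.2%) and 4 lower (Col12a1, Col13a1, Col15a1 and Col23a1; background 25.6%). The first count is near the background share and the second lies below it.

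ACE-seq was higher by 0.19 ± 0.08 points at Col4a2, 0.19 ± 0.16 at Col6a5, 0.19 ± 0.14 at Col19a1, 0.18 ± 0.25 at Col5a3 and 0.13 ± 0.11 at Col4a3. Negative differences were found with -0.21 ± 0.11 points at Col13a1, -0.20 ± 0.14 at Col12a1, -0.17 ± 0.07 at Col15a1, -0.14 ± 0.07 at Col23a1 and -0.10 ± 0.14 at Col18a1. Col13a1, with a ratio of 0.834, lay just inside the 1.2-fold bound. The median size of the difference over the 32 genes was 0.107 points for CSD against control and 0.0737 points between the controls. Over all genes the order was the reverse, with 0.0986 and 0.117 points.

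Start bins also differed between the 2 controls. Among the 20 collagen genes of at least 10 bins with a listed strand, the bin with the gene's start was lower than the mean of its other bins in 16 genes in the DDD-seq control (background 73.7%), 12 in the CSD library (background 75.3%) and 6 in the ACE-seq control (background 71.4%). The median start bin had 1.26%, 1.24% and 1.37%, and the median of the other bins was 1.33%, 1.36% and 1.31%. In the ACE-seq control the start bin was thus the higher one at most of these collagen genes, unlike over all genes. The difference rests on 1 bin per gene, and Col4a1 and Col4a2 share theirs, as do Col4a5 and Col4a6. A start bin can also lie mostly outside its gene, as at Col23a1, with an overlap of 322 bases.

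Genes that act on collagen were described from lists of the pathway. Of the enzymes that hydroxylate, cut and cross-link collagen, 11 of 28 covered at least 5 bins, with a median of 1.53%, 1.55% and 1.53%. Their highest members in the DDD-seq control were Tll1, a protease of the procollagen-cutting family, with 3.46%, 3.42% and 3.79%, the lysyl hydroxylase gene Plod2 with 2.17%, 1.92% and 1.78%, and the prolyl hydroxylase gene P4ha1 with 2.08%, 1.73% and 1.71%. Their lowest in that library were P3h2 with 1.26%, 1.49% and 1.38% and Tll2 with 1.27%, 1.21% and 1.12%. These enzymes thus included a gene above 3% in all 3 libraries, a level that no collagen gene had.

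Collagen receptors had a median of 1.35%, 1.31% and 1.21% over 8 of 11 genes. Of these 8, the integrin gene Itgb1, which pairs with every collagen-binding alpha chain, was the highest with 2.38%, 2.46% and 2.09%. Itga2 followed in each library with 1.89%, 1.84% and 1.63%. Mrc2, with 1.47%, 1.40% and 1.15%, came next in the DDD-seq control only. Itga1, with 1.42%, 1.49% and 1.46%, lay above Mrc2 in the CSD and ACE-seq libraries. The lowest in the DDD-seq control were Itga11, with 1.14%, 1.16% and 1.12%, and Adgrg1, a receptor for type III collagen, with 1.25%, 1.2% and 1.18%. Laminins and other basement membrane partners had a median of 1.35%, 1.33% and 1.35% over 13 of 15 genes, near that of type IV collagen. The highest were Lamb3 with 2.13%, 1.97% and 2.17%, Lamc1 with 1.76%, 1.72% and 1.78% and Lama2, the laminin of muscle and vessel membranes, with 1.66%, 1.69% and 1.63%. The lowest in the DDD-seq control were Lamc3 with 1.07%, 1.13% and 1.22% and Nid2 with 1.09%, 1.17% and 1.46%. Of the degrading enzymes, 2 of 9 genes covered at least 5 bins: Mmp16, a membrane-bound matrix metalloproteinase, with 3.75%, 3.78% and 3.66%, and Fap with 1.92%, 2.0% and 1.76%.

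Of the 34 partner genes of at least 5 bins in these 4 lists, 0 were at least 1.2-fold higher and 1 lower in the CSD library than in control (all genes, 4.91% and 4.68%). The lower gene was P4ha1, with a ratio of 0.831. Between the controls, 1 partner was at least 1.2-fold higher by ACE-seq, Nid2, a basement membrane linker, with a ratio of 1.34. The 3 lower partners were P4ha1, Plod2 and Mrc2, with ratios of 0.825, 0.823 and 0.782 (all genes, 4.34% higher and 9.23% lower). Below the all-gene median were 6, 5 and 4 of the 11 enzyme genes in the DDD-seq control, CSD and ACE-seq libraries, 6 of 8 receptor genes in each library, and 9 of 13 basement membrane partners in each library.

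Marker genes of the cells that make collagen, and of muscle and bone, mostly lay below the all-gene median. Of the markers of at least 5 bins, 4 of 5 of fibroblasts and meninges did so in the DDD-seq control, where the background is 50%. So did 4 of 4 of mural cells, 6 of 7 of endothelium and 2 of 2 of muscle and bone. The exceptions there were Dcn, with 1.76%, 1.75% and 1.29%, and Emcn, with 2.83%, 2.89% and 2.79% in the DDD-seq control, CSD and ACE-seq libraries. In the ACE-seq control Dcn lay below the median and Aldh1a2 (1.50%) above it. Of the shorter markers in these lists, Lum, over 2 bins, lay above the median in each library, with 1.79%, 2.38% and 1.72%. The other shorter ones lay below it in the DDD-seq control. This is the usual position of short genes, since 15165 of 21676 genes of at least 1 bin lay below that median there. The medians in the DDD-seq control were 1.22% over 5 genes of fibroblasts and meninges, 1.22% over 4 genes of pericytes and mural cells, 1.17% over 7 endothelial genes and 1.30% over 2 genes of muscle and bone. Of the granule cell genes of at least 5 bins, Grm4 had 1.59%, Fat2 1.82%, Kcnd2 5.36% and Etv1 6.52%. The 6 shorter granule cell genes ran from 0.889% to 2.99%. Of these, Neurod1, Zic1, Zic2 and Cbln3 lay at 1.40% or below, like most markers of the collagen-making cells and like many short genes. In bulk DNA, fewer cells of a type and less 5hmC per cell cannot be told apart, and the part of cell makeup in the collagen levels was not tested.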

How the data were processed

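5hmC was measured in genomic DNA of mouse cerebellum in 3 libraries, 1 per group. FastQC, Trimmomatic and Bismark are named in the submitters' processing notes without versions. In the deposited table each 10 kb bin has a fraction from 0 to 1 for each library, per the file headers. The authors' averaging, choice of cytosines and coverage filter: not given in the sources used here. Both DDD-seq headers include "all", which may mean pooled runs, and were taken as the authors' value for the group. The protocol text in the labels is identical for ACE-seq and DDD-seq. The notes name hg19, but the bins fit mouse chromosomes: each last bin ended 1.33 to 211.9 kb after the last gene of GRCm38.p6, whose positions were used.

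Fractions were multiplied by 100. Bins with a value in all 3 libraries (262974 of 264399) that overlap a gene by at least 1 bp were averaged with equal weight. A gene of at least 5 bins was called higher or lower at a fold of 1.2. Only the arithmetic of the gene-level ratio was tested, on simulated data with known folds put in. Start sequences are from RefSeq (GRCm38.p6). Named genes were every member, the 5 largest differences each way, and the 3 highest and 2 lowest partners of each list. Partners were ranked in the DDD-seq control, and Itga1 was named in addition. Members, lists and rules were chosen with earlier results of these data known. Computations used Python 3.11.15 with pandas 2.3.3, numpy 2.4.6, matplotlib 3.10.9 and, for correlations, scipy 1.17.1.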

Additional observations from a re-analysis of the deposited data

How the results depend on the processing

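No paired analysis was possible because each group has 1 library. A coverage minimum could not be tried, since the table gives no coverage. The median levels of the collagen genes in the 3 libraries moved by less than the scatter over their genes under each bin-level alternative tried.

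With genes of at least 1 bin, collagen genes below the median of all genes made up 61.4% (DDD-seq control), 45.5% (CSD), 45.5% (ACE-seq control) and 31.8% (all 3 libraries together), against 87.5%, 78.1%, 87.5% and 78.1% with at least 5 bins. The number at least 1.2-fold higher in the CSD library, 0 in the report, was 4 by the median over bins, 1 with bins wholly inside the gene, 1 with bins weighted by overlap, and 2 with members of at least 1 bin, where 3 were lower. It was 10 at a fold of 1.1. Between controls, 1 gene was higher and 1 lower by ACE-seq by the median over bins, 1 was higher with bins wholly inside the gene, with weighted bins, without bins of other genes and after scaling, 2 were lower with members of at least 1 bin, and 5 were higher and 4 lower at a fold of 1.1. The median CSD minus control difference was 0.0800 points without bins of other genes. After scaling to all genes, the controls differed by a median of 0.0430 points.

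Fibrillar medians with members of at least 20 bins (2 genes) were 1.44%, 1.60% and 1.41%, and the ACE-seq median with bins wholly inside the gene was 1.39%. With at least 20 bins, the type IV median in the CSD library was 1.47%, that of the basement membrane partners 1.51%, and 7 of 10 collagen genes were higher than control in the CSD library and 4 of 10 by ACE-seq. With at least 1 bin, the degrading enzymes had 1.14% in the CSD library. At least 1.2-fold above the flank in the CSD library were 6 genes with a flank of 50 kb and 6 with intergenic flanks. In the DDD-seq control 7 passed with intergenic flanks, where the median body minus flank difference was 0.111 points, and 0.160 points in the CSD library. At a fold of 1.1, 6, 9 and 7 genes passed in the DDD-seq control, CSD and ACE-seq libraries.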
